A study of Mus musculus with 6 samples.

Results

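Glycolysis and the fate of its product pyruvate were followed through 36 genes of the 24060 in the count table of immunopanned mouse retinal ganglion cells (RGCs), the neurons whose axons form the optic nerve. The genes were chosen by name for their role: carriers of glucose and lactate, the enzymes from hexokinase to lactate dehydrogenase, the enzymes that set fructose-2,6-bisphosphate, the proteins that bring pyruvate into the citric acid cycle, and the kinases that restrain that step. RNA-seq was compared between 3 samples from embryonic day 18 (E18) and 3 from postnatal day 5 (P5), all from C57BL/6 wild-type mice without any treatment. The study set these ages side by side because RGCs lose much of their capacity for axon growth between them. Retinas were dissociated with papain, depleted of macrophages on antibody-coated dishes, and RGCs were then held on dishes by an antibody against CD90 (Thy1), so any other Thy1-bearing cell could be held too. The labels do not say whether samples came from separate animals or pools, so that p-values measure the spread between these samples, which may be technical. The samples are numbered 1, 3 and 4 at E18 and 6, 8 and 9 at P5, and 2 further numbers, 2 and 5, stand in the name of the count column taken as E18 replicate 1, without a word on pooling.

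Glycolysis splits glucose into pyruvate in the cytosol and yields a small amount of ATP without oxygen. Pyruvate is then either reduced to lactate, which leaves the cell with a proton through monocarboxylate transporters, or carried into mitochondria, where the pyruvate dehydrogenase complex turns it into acetyl-CoA for the citric acid cycle. Many steps are run by several isozymes encoded by separate genes, and some of these are typical of growing or oxygen-poor tissue, others of mature neurons, muscle or glia. The hypoxia-inducible factor HIF-1 and the proto-oncogene product MYC are textbook activators of many of the genes.

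The deposited counts on genes summed to between 81213639 and 114512853 reads per sample. Levels are given as CPM, the reads of a gene scaled to a common library size after TMM normalization, fold changes as log2 of P5 over E18 with the standard error (SE) of the model, and adjusted p-values come from edgeR's quasi-likelihood test with Benjamini-Hochberg adjustment over 16449 tested genes. A gene is said to have risen or fallen where its adjusted p was under 0.05. RGC markers summed to 10678 to 12185 CPM at E18 and to 10613 to 11671 CPM at P5. The single markers were not level, since 5 of the 15 rose and 5 fell. Nefh rose 3.70-fold and Slc17a6 2.63-fold, whereas Isl1 fell 2.15-fold and Gap43 1.42-fold. The markers of other cells were not level between the samples either. Dividing-cell genes summed to 408, 186 and 131 CPM in E18 replicates 1, 3 and 4 and to 97.5 to 119 CPM at P5, and retinal progenitor genes to 321, 180 and 68.2 CPM against 49.9 to 68.5 CPM. Amacrine markers summed to 759, 952 and 637 CPM at E18 and to 528 to 652 CPM at P5. Most of these sums was Pax6, at 661, 751 and 622 CPM at E18 and 498 to 629 CPM at P5. Among the other amacrine markers, Tfap2b read 47.5, 119 and 1.62 CPM at E18 and 1.02 to 1.55 CPM at P5. Of the 11 microglial markers 9 stayed under 1 CPM in every sample, and the others were Cd68 at 1.16 to 2.497 CPM and Aif1 at 0.575 to 1.01 CPM. Of the 12 markers of Müller glia and astrocytes 3 (Aqp4, Gfap and Pax2) stayed under 1 CPM, while Glul read 230 to 326 CPM and Dkk3 95.1 to 201 CPM. The part of these cells in the results was not tested. The level of the panning target Thy1 itself was higher at P5, at 212, 217 and 312 CPM against 500, 469 and 690 CPM. In such bulk samples fewer cells of a type and less RNA per cell cannot be told apart.

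Between E18 and P5 the genes of this pathway moved in both directions, often within one isozyme family. Of the 35 members that could be tested, 24 passed the test, 12 higher and 12 lower at P5, and their median log2 fold change was -0.10 against -0.00 over all genes tested. Across all tested genes 43.4% passed, 22.5% higher and 20.8% lower at P5. The samples of the ages did not overlap in 25 of the 35 members, against 56.1% of all tested genes. The fitted changes ran from -2.72 for the lactate exporter Slc16a3 to 1.67 for the neuronal enolase Eno2. Among the enzymes from hexokinase to lactate dehydrogenase, 8 of 19 fell and 5 rose, whereas 5 of the 6 genes of mitochondrial pyruvate entry and oxidation rose and none fell. The member left untested is Pdk4, a pyruvate dehydrogenase kinase of fasting muscle and heart, with 16, 7 and 8 reads at E18 and 0, 6 and 1 reads at P5, too few for the filter on low counts.

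**Figure D1:**
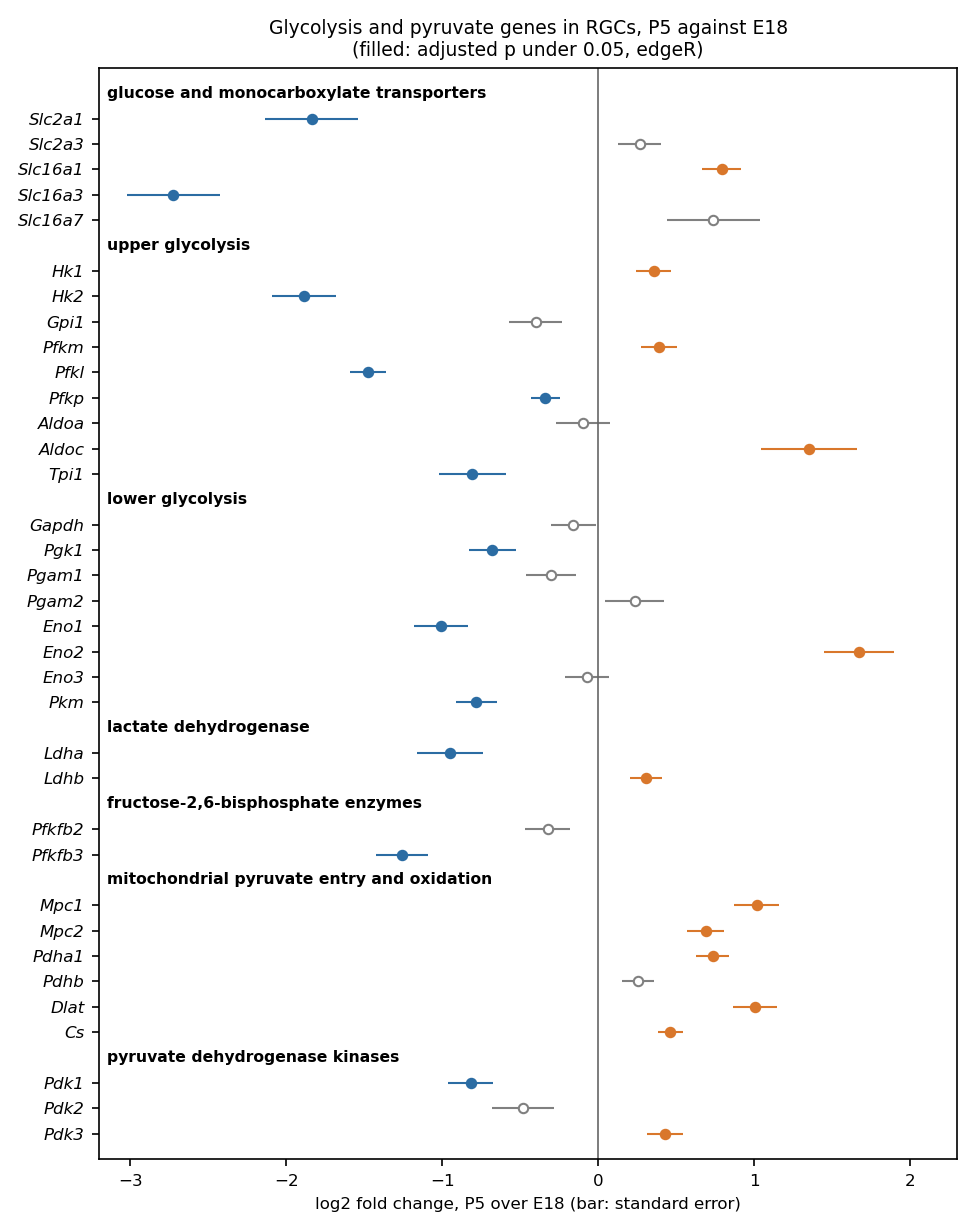
Log2 fold change of P5 over E18 (horizontal axis) with its standard error (bars) for the 35 tested genes, grouped by role; filled points passed the threshold of 0.05 (orange higher at P5, blue lower), open grey points did not. The largest fall is that of Slc16a3 at -2.72, the largest rise that of Eno2 at 1.67, and all 6 points of mitochondrial pyruvate entry and oxidation lie to the right of 0.

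The promoters of the members are shown first, because HIF-1 is known to act through short elements there whose core reads ACGTG or GCGTG. The 250 bases before each start in RefSeq (build GRCm38.p6) were searched on both strands, and 34 of the 36 members matched an entry, with 51 promoters. ACGTG was found before 7 of the 12 genes that fell, 3 of the 12 that rose and 5 of the 10 others. It was found before 18.5% of all 27025 genes with a RefSeq promoter. That background was not limited to the 24060 genes counted or the 16449 tested, so it is not matched to the members in expression. GCGTG was found before 7 of the 12 that fell, 9 of the 12 that rose and 6 of the 10 others, against 30.9% of all genes. The E-box CACGTG, which MYC and USF proteins read and which holds ACGTG on both strands, lay before 2 of 12, 2 of 12 and 2 of 10, against 6.86%. Genes with several starts had several chances of a match, and a match is a description of letters, not of binding. The windows below surround the ACGTG matches of members that fell, with the match or its reverse complement CACGT in capitals.
Slc16a3 (chr11:120949028-120949066, plus strand): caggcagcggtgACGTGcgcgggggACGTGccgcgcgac
Ldha distal (chr7:46845647-46845676, plus strand): ggtgtcgcagcaCACGTGgagccactcttg
Ldha proximal (chr7:46845744-46845786, plus strand): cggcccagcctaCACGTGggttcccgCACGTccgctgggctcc
Pgk1 (chrX:106186938-106186985, plus strand): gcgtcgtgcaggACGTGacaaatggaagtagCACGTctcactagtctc
Hk2 distal (chr6:82774664-82774692, minus strand): agccacggaacaCACGTcccaactctggc
Hk2 proximal (chr6:82774490-82774518, minus strand): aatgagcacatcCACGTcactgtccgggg
Slc2a1 (chr4:119108697-119108725, plus strand): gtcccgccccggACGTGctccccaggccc
Pfkfb3 upstream start (chr2:11553973-11554001, minus strand): ctccgcgccgtgACGTGccaagctgtgac
Pfkfb3 downstream start (chr2:11502126-11502155, minus strand): cacccttctctcCACGTGaaagggggctgg
Pkm (chr9:59657140-59657168, plus strand): ctccgatccggtCACGTccgcgccgcagc
The 3 members that rose and hold the letters are shown for contrast.
Slc16a1 (chr3:104638452-104638481, plus strand): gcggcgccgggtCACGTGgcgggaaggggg
Pfkm upstream start (chr15:98092441-98092470, plus strand): aattaagtatgcCACGTGaagtaagtaatt
Pfkm downstream start (chr15:98108221-98108243, plus strand): gtggcaCACGTttgaattcaagg
Pdk3 (chrX:93832187-93832215, minus strand): cgcgcgccgcgtACGTGcggcggcagatc
The pair of matches in Slc16a3 lay within 27 bases of its start, at positions -27 and -14, in the member with the largest fall. Ldha held 5 matches counted over both strands and Pgk1 held 2, at -150 and -131. No ACGTG was in the window of Eno2, the member with the largest rise, which says only that these letters are not in that window. Nor was it before Pfkl, Pdk1, Eno1, Tpi1 or Pfkp, which fell. Windows around GCGTG, found before 9 of the 12 that rose and 7 of the 12 that fell, are not shown. The same holds for ACGTG before the 5 other members.

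Both glucose transporters and all 3 monocarboxylate transporters were expressed, and they diverged. Slc2a1 encodes GLUT1, the carrier of the blood-brain barrier and of growing cells, and it was measured at 45.1, 31.2 and 33.6 CPM at E18 and at 8.09, 6.89 and 15.7 CPM at P5. All P5 samples lay below all E18 samples, a 3.58-fold fall (log2 -1.84, SE 0.298, edgeR adjusted p = 0.00195). Because endothelial cells are rich in GLUT1, their markers stand beside this value: they summed to 72.8, 64.6 and 16.5 CPM in E18 replicates 1, 3 and 4 and to 14.6 to 17.9 CPM at P5. At E18 replicates 1 and 3 nearly all of that sum was Kdr, a VEGF receptor. Of the 8 tested endothelial and pericyte markers 3 rose and 1, Kdr, fell, and Cdh5, Cldn5, Flt1, Pdgfrb and Cspg4 stayed under 1 CPM in every sample. In E18 replicate 4 the endothelial sum was within the range of the P5 samples and Slc2a1 was at 33.6 CPM, and the part of endothelial cells in the difference was not tested. Slc2a3 encodes GLUT3, the high-affinity carrier of neurons, and its 159, 188 and 217 CPM at E18 overlapped the 204, 214 and 260 CPM at P5 (log2 0.26, SE 0.136, edgeR adjusted p = 0.146). Within the pair, GLUT3 made up 80.6% ± 5.40 of the glucose transporter level per exonic length at E18 and 94.9% ± 1.60 at P5 (SD, n = 3).

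The monocarboxylate transporters exchanged rank. Slc16a3 encodes MCT4, the low-affinity exporter of cells that make much lactate, and lies at chr11:120948480-120960868 on the plus strand of mm10. It was measured at 78.2, 87.3 and 99.6 CPM at E18 and at 10.8, 8.62 and 20.7 CPM at P5, with a wide gap between the ages. This 6.61-fold fall was the largest among the members (log2 -2.72, SE 0.298, edgeR adjusted p = 0.000404). Slc16a1 encodes MCT1, a carrier that works in either direction, and it went from 19.1, 19.4 and 17.6 CPM to 30.9, 28.4 and 37.7 CPM, a 1.73-fold rise without overlap (log2 0.79, SE 0.127, edgeR adjusted p = 0.00183). There were 4.10 to 5.65 Slc16a3 reads for each Slc16a1 read at E18 and 0.303 to 0.5498 at P5. Slc16a7 encodes MCT2, the high-affinity importer of neurons, and it read 9.91, 9.59 and 10.6 CPM at E18 and 22.2, 8.52 and 19.4 CPM at P5. P5 replicate 8 lay below every E18 sample, and the difference did not pass (log2 0.74, SE 0.299, edgeR adjusted p = 0.0748), while without that replicate it did (log2 1.07, edgeR adjusted p = 0.000416). It also passed on all samples with DESeq2 (adjusted p = 0.0279) and with edgeR's likelihood ratio (0.0427) and exact (0.0437) tests.

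The upper part of glycolysis, from glucose to triose phosphates, is run here by 9 genes, of which 4 fell and 3 rose. Hexokinase traps glucose in the cell as glucose 6-phosphate. Hk1, the mitochondria-bound form of brain, was measured at 251, 252 and 280 CPM at E18 and at 306, 308 and 387 CPM at P5 (log2 0.35, SE 0.113, edgeR adjusted p = 0.0322). This small rise did not overlap between the ages, but it missed the threshold without E18 replicate 1 (adjusted p = 0.104), without E18 replicate 3 (0.113) or without P5 replicate 9 (0.0780, edgeR). Hk2, the inducible form of muscle and growing cells, went from 8.99, 8.44 and 7.25 CPM to 1.71, 2.31 and 2.65 CPM, a 3.70-fold fall without overlap (log2 -1.89, SE 0.206, edgeR adjusted p = 0.000399). Even at E18 it was a minor form, with 2.67% ± 0.429 of the hexokinase level per length, and at P5 it held 0.571% ± 0.0819 (SD, n = 3). Gpi1, which turns glucose 6-phosphate into fructose 6-phosphate, read 674, 678 and 714 CPM at E18 and 457, 420 and 686 CPM at P5. P5 replicate 9 lay among the E18 values, and the change passed only in its absence (log2 -0.40, adjusted p = 0.0833 with it, and -0.65 and 0.00190 without it, edgeR).

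Phosphofructokinase commits sugar to glycolysis, and its 3 subunit genes went different ways. Pfkl, the liver-type subunit, was measured at 318, 309 and 345 CPM at E18 and at 119, 99.8 and 131 CPM at P5. The ages were far apart in every sample, and the 2.78-fold fall had the smallest adjusted p of all members (log2 -1.48, SE 0.115, edgeR adjusted p = 0.000127). Pfkm, the muscle-type subunit, rose from 120, 117 and 131 CPM to 154, 142 and 186 CPM (log2 0.39, SE 0.115, edgeR adjusted p = 0.0247). Pfkp, the platelet-type subunit and the most abundant per length in every sample, went from 807, 824 and 855 CPM to 611, 730 and 624 CPM (log2 -0.34, SE 0.0929, edgeR adjusted p = 0.0183). Neither of these smaller changes overlapped between the ages, and both were sensitive to single samples. For Pfkm the edgeR adjusted p was 0.0804, 0.0972 and 0.0616 without E18 replicate 1, E18 replicate 3 and P5 replicate 9, and for Pfkp it was 0.0576, 0.0588 and 0.0628 without E18 replicate 3, E18 replicate 4 and P5 replicate 6. Per length, Pfkm made up 12.8% ± 0.305 of the family at E18 and 22.6% ± 3.11 at P5, while the Pfkp share of 60.2% ± 0.902 and 64.2% ± 4.96 overlapped (SD, n = 3).

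Aldolase splits fructose 1,6-bisphosphate, and triose phosphate isomerase interconverts the products. Aldoa, the widespread aldolase, read 598, 616 and 687 CPM at E18 and 577, 443 and 755 CPM at P5, so that the E18 samples fell inside the range of P5 (log2 -0.10, SE 0.172, edgeR adjusted p = 0.668). Aldoc, the brain aldolase best known from astrocytes and Purkinje cells, was far lower than Aldoa, also per length, at 18.2, 16.5 and 17.3 CPM at E18 and 43.2, 23.5 and 66.0 CPM at P5. It rose 2.55-fold without overlap, with a wide spread at P5 (log2 1.35, SE 0.306, edgeR adjusted p = 0.00823). The markers of Müller glia and astrocytes, cells that also express Aldoc, summed to 526 to 622 CPM at E18 and 528 to 553 CPM at P5, with 2 of 10 tested markers higher and 3 lower at P5. Clu, a marker on that list, rose from 22.6, 23.7 and 29.6 CPM to 54.7, 41.9 and 77.1 CPM, in the same order among P5 samples as Aldoc. That order was not particular to them, since P5 replicate 9 was the highest in 30 of 35 members and P5 replicate 8 the lowest in 25. Dkk3 rose 1.502-fold, while Glul fell 1.27-fold, Vim 2.26-fold and Sox9, at a mean of 0.863 CPM at E18, 4.98-fold. The part of glial cells in the rise of Aldoc was not tested. Tpi1 fell 1.75-fold, from 535, 574 and 586 CPM to 313, 215 and 441 CPM (log2 -0.81, SE 0.216, edgeR adjusted p = 0.0168), and its adjusted p was 0.0728 without P5 replicate 6.

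In the lower part, from glyceraldehyde 3-phosphate to pyruvate, 3 of 8 genes fell and 1 rose. Gapdh, which oxidizes the triose and is often used as a reference gene, read 557, 574 and 560 CPM at E18 and 435, 443 and 637 CPM at P5. The E18 samples lay tightly together inside the wide P5 range, and the difference did not pass (log2 -0.16, SE 0.144, edgeR adjusted p = 0.398), although it did without P5 replicate 9 (log2 -0.36, edgeR adjusted p = 0.0122). Pgk1, the first step that returns ATP, went from 307, 318 and 317 CPM to 187, 155 and 247 CPM without overlap (log2 -0.68, SE 0.153, edgeR adjusted p = 0.00801). Pgam1, which moves the phosphate group, read 154, 141 and 164 CPM at E18 and 115, 99.0 and 157 CPM at P5, overlapping through P5 replicate 9 (log2 -0.30, SE 0.160, edgeR adjusted p = 0.153), and it passed without that replicate (log2 -0.51, edgeR adjusted p = 0.0111). Its muscle counterpart Pgam2 stood between 3.85 and 5.69 CPM throughout (log2 0.23, SE 0.190, edgeR adjusted p = 0.347).

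The enolase genes moved in opposite directions. Eno1, the widespread alpha enolase, was measured at 45.2, 42.4 and 48.1 CPM at E18 and at 21.9, 17.1 and 28.5 CPM at P5, a 2.01-fold fall (log2 -1.01, SE 0.172, edgeR adjusted p = 0.00246). Eno2, the gamma enolase known as neuron-specific enolase, was measured at 98.1, 92.1 and 108 CPM at E18 and at 288, 219 and 442 CPM at P5, a 3.18-fold rise (log2 1.67, SE 0.226, edgeR adjusted p = 0.000913). Neither gene overlapped between the ages. Eno2 reads outnumbered Eno1 reads by 2.17 to 2.25 at E18 and by 12.8 to 15.5 at P5. Eno3, the muscle form, stayed at 8.74 to 9.46 CPM and 7.91 to 9.91 CPM (log2 -0.07, SE 0.140, edgeR adjusted p = 0.696). Per length, Eno2 made up 60.1% ± 1.04 of enolase at E18 and 88.4% ± 1.63 at P5 (SD, n = 3). The level of Eno1 is uncertain, since 59.0% of the 100-base windows of its transcript also occur in transcripts of other genes, among them Eno1b, which was itself counted at 1.27 CPM at E18 and 0.627 CPM at P5. Eno2 has no such window, so that its rise does not depend on how shared reads were counted, whereas its share does.

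Pyruvate kinase and lactate dehydrogenase close the cytosolic route. Pkm was the most abundant member at E18, also per length, at 1178, 1300 and 1178 CPM, and read 639, 625 and 861 CPM at P5, a 1.72-fold fall without overlap (log2 -0.78, SE 0.130, edgeR adjusted p = 0.00215). Its M1 and M2 proteins come from alternative exons of one gene, and counts per gene cannot tell them apart. Ldha, whose subunit favours reduction of pyruvate to lactate, fell 1.93-fold, from 555, 571 and 597 CPM to 289, 201 and 402 CPM (log2 -0.95, SE 0.210, edgeR adjusted p = 0.00739). Ldhb, whose subunit favours oxidation of lactate and marks heart and neurons, went from 104, 106 and 96.4 CPM to 118, 117 and 143 CPM (log2 0.31, SE 0.105, edgeR adjusted p = 0.0422). The ages overlapped for neither subunit. The Ldhb call is the weakest among the members: the adjusted p rose to between 0.0503 and 0.132 in 7 of 13 alternatives, namely with upper-quartile normalization, with no filter, and on leaving out any sample but P5 replicate 8. Reads of Ldha outnumbered those of Ldhb by 5.35 to 6.19 at E18 and by 1.72 to 2.80 at P5, and the Ldhb share per length was 20.5% ± 1.34 and 39.1% ± 6.05 (SD, n = 3).

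**Figure D2:**
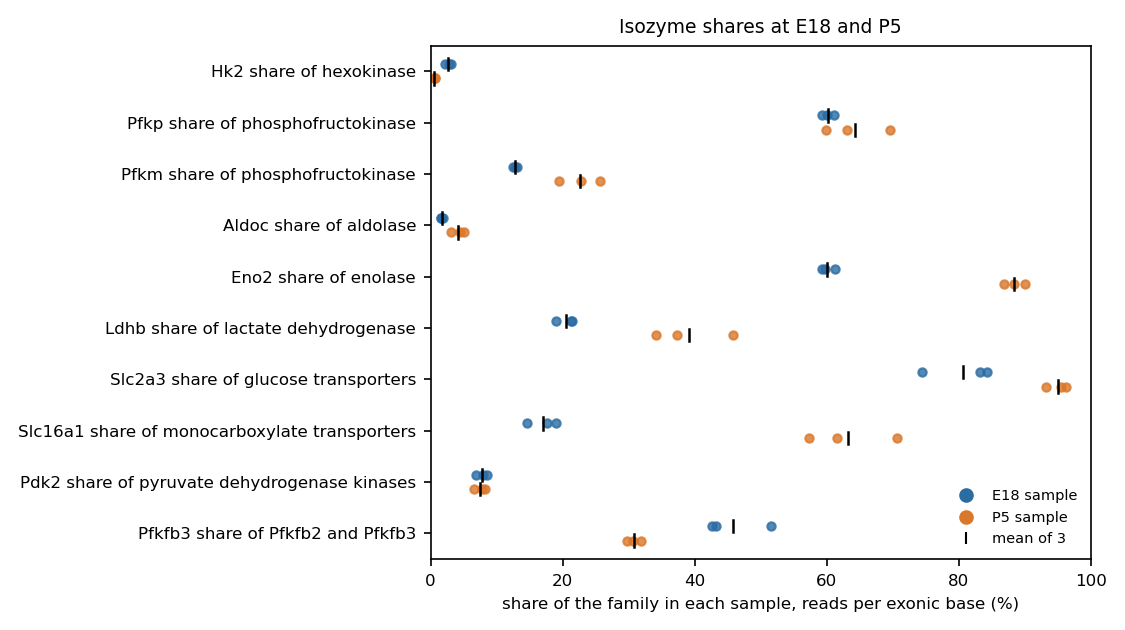
Share of 1 gene in its family per sample (horizontal axis, percent of the reads per exonic base) for 10 families or pairs, with E18 samples in blue, P5 samples in orange and black ticks at the mean of 3. The ages are apart in 8 of 10 rows, among them Slc16a1 at 17.1% against 63.2% and Eno2 at 60.1% against 88.4%, and overlap for Pfkp and Pdk2.

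Over the 10 isozyme shares plotted, the samples of the ages were apart in 8 and overlapped for Pfkp and Pdk2. An exact two-sided permutation test of 3 against 3 cannot go below p = 0.1, the value that these 8 reached, or 0.125 after Benjamini-Hochberg adjustment over the 10, so none can pass a threshold of 0.05. The Slc16a1 share of the monocarboxylate transporters went from 17.1% ± 2.22 to 63.2% ± 6.77 (SD, n = 3). That shift of 46.1 percentage points depends on the length by which reads are divided, and is 37.0 points without division and 28.8 points with the length of 1 transcript for each gene, below the 31.0 points of the Eno2 share on that scale. Summed over the 19 enzymes from hexokinase to lactate dehydrogenase, the samples held 6340, 6554 and 6704 CPM at E18 and 4686, 4275 and 6211 CPM at P5. The P5 mean was 0.774 of that at E18, and P5 replicate 9 came close to the E18 samples.

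Phosphofructokinase is driven by fructose 2,6-bisphosphate, which bifunctional enzymes make and remove. Pfkfb3, a strong maker of this activator and a HIF-1 target, went from 66.3, 69.9 and 88.7 CPM to 26.6, 38.7 and 28.7 CPM, a 2.39-fold fall without overlap (log2 -1.26, SE 0.167, edgeR adjusted p = 0.000868). Pfkfb2, the heart-type enzyme, read 79.2, 85.6 and 76.1 CPM at E18 and 57.2, 79.5 and 55.7 CPM at P5. P5 replicate 8 lay among its E18 samples, and the change passed only without it (log2 -0.32, adjusted p = 0.0946 with it, and -0.49 and 0.00228 without it, edgeR). Per length Pfkfb3 held 45.8% ± 4.95 of the pair at E18 and 30.8% ± 1.09 at P5 (SD, n = 3).

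Mitochondrial pyruvate entry and oxidation formed the one group in which every gene was higher in all P5 samples than in any E18 sample. Mpc1 and Mpc2 together form the carrier that takes pyruvate across the inner mitochondrial membrane. Mpc1 went from 22.1, 22.3 and 23.6 CPM to 43.7, 37.9 and 55.8 CPM (log2 1.01, SE 0.144, edgeR adjusted p = 0.00111), and Mpc2 from 30.5, 29.6 and 30.2 CPM to 51.8, 40.7 and 52.9 CPM (log2 0.69, SE 0.118, edgeR adjusted p = 0.00244). These are rises of 2.02-fold and 1.61-fold. Pdha1 encodes the alpha subunit of the first enzyme of pyruvate dehydrogenase, the subunit on which its kinases act, and it went from 176, 192 and 206 CPM to 324, 283 and 347 CPM (log2 0.73, SE 0.105, edgeR adjusted p = 0.00117). Pdhb, the beta subunit, read 103, 101 and 104 CPM at E18 and 129, 106 and 134 CPM at P5, apart but by little, and did not pass (log2 0.26, SE 0.103, edgeR adjusted p = 0.0739), although it did without P5 replicate 8 (log2 0.37, edgeR adjusted p = 0.00355). Dlat, the acetyl-transferring core of the complex, went from 67.3, 68.7 and 74.5 CPM to 133, 116 and 173 CPM, a 2.01-fold rise (log2 1.00, SE 0.144, edgeR adjusted p = 0.00117). Cs, citrate synthase, which brings acetyl-CoA into the cycle, went from 328, 335 and 356 CPM to 472, 452 and 480 CPM (log2 0.46, SE 0.0799, edgeR adjusted p = 0.00256). Summed over the 6 genes, the samples held 727 to 795 CPM at E18 and 1036 to 1243 CPM at P5, a ratio of 1.51.

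The pyruvate dehydrogenase kinases switch the complex off by phosphorylation. Pdk1, the HIF-1 induced kinase, was the most abundant of them per length and fell 1.76-fold, from 166, 178 and 189 CPM to 94.8, 82.9 and 124 CPM without overlap (log2 -0.82, SE 0.145, edgeR adjusted p = 0.00279). Pdk3 went the other way, from 18.5, 19.7 and 19.5 CPM to 26.0, 22.7 and 28.7 CPM (log2 0.43, SE 0.115, edgeR adjusted p = 0.0178), a call that was lost without E18 replicate 1 (adjusted p = 0.0765), E18 replicate 3 (0.0578) or P5 replicate 9 (0.0508). Pdk2, the widespread kinase, read 8.53, 8.39 and 7.48 CPM at E18 and 4.77, 5.09 and 7.59 CPM at P5, overlapping through P5 replicate 9 (log2 -0.48, SE 0.199, edgeR adjusted p = 0.0782), and it passed without that replicate (edgeR adjusted p = 0.0128) and with DESeq2 (adjusted p = 0.0440). In reads not divided by length, there were 2.46 to 2.59 Pdk1 reads per Dlat read at E18 and 0.712 to 0.716 at P5. At the branch point of pyruvate, there were 2.90 to 3.15 Ldha reads for each Pdha1 read at E18 and 0.709 to 1.16 at P5. Pdk1 and Ldha fell and Dlat and Pdha1 rose, each without overlap, so both ratios had to be apart between the ages and add no separate result.

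**Figure D3:**
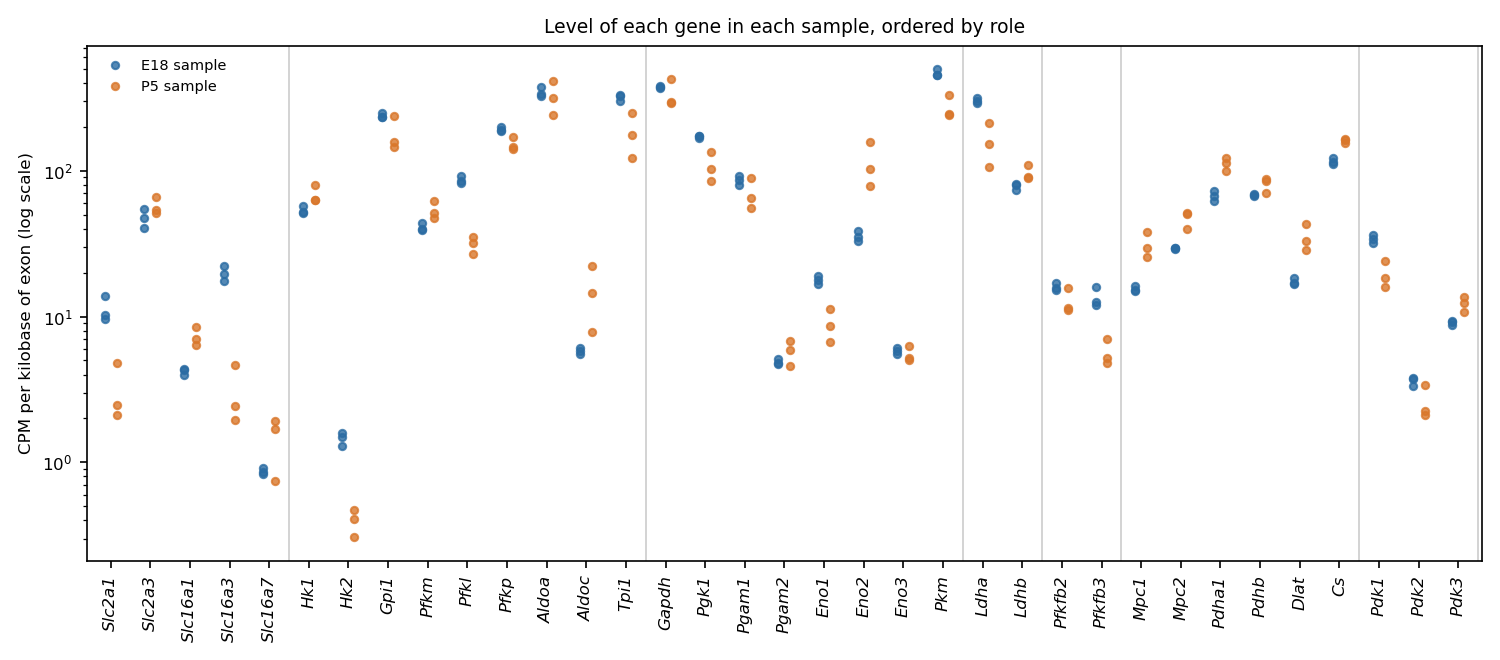
Level of each tested gene in each sample as CPM per kilobase of exon (log scale), with genes along the horizontal axis in order of role, grey lines between roles, E18 samples in blue and P5 samples in orange. Pkm stands highest at E18 and Hk2 lowest at P5, and P5 points are spread more widely than E18 points, with P5 replicate 9 the highest of its age in 30 of 35 genes.

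Per kilobase of exon, the scale on which genes can be set against each other, the order of abundance changed at its top. At E18 Pkm led with 469 ± 27.1, followed by Gapdh at 377 ± 6.27, Aldoa at 347 ± 25.8, Tpi1 at 320 ± 15.1 and Ldha at 303 ± 11.4 CPM per kilobase (SD, n = 3). At P5 Gapdh stood at 338 ± 76.4, Aldoa at 324 ± 85.9 and Pkm at 273 ± 50.8 CPM per kilobase (SD, n = 3). In P5 replicates 6, 8 and 9 Gapdh (291, 296 and 426) lay above Pkm (246, 241 and 331). Aldoa (316, 243 and 414) did so too, in replicate 8 by little, and its order with Gapdh differed between samples. These orders were not tested. Citrate synthase, at 116 ± 5.05 CPM per kilobase at E18, reached 160 ± 4.998 at P5, near Ldha at 157 ± 53.1 (SD, n = 3). The lowest tested members on this scale were Slc16a7 and Hk2, at 0.872 ± 0.0451 and 1.47 ± 0.159 CPM per kilobase at E18 and 1.45 ± 0.629 and 0.396 ± 0.0840 at P5 (SD, n = 3). The place of Slc16a7 depends on the length used, since its exonic length is 11509 bases and its matched transcript has 2419. For Hk2 the 2 lengths are close, at 5614 and 5513 bases.

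The P5 samples were less alike than the E18 samples in these genes. The median coefficient of variation was 5.47% at E18 and 20.8% at P5 over the tested members, against 6.68% and 13.0% over the 13426 tested genes whose mean reached 1 CPM. P5 replicate 9 was the highest P5 sample in 30 of 35 members and in 33.2% of all tested genes, and P5 replicate 8 the lowest in 25 of 35 members and in 39.2% of all. Leaving out P5 replicate 9 left 16 members lower and 8 higher at P5, and leaving out P5 replicate 8 left 13 lower and 14 higher. P5 replicates 8 and 9 held 97807217 and 92861898 counted reads. Marker sums of dividing cells (119 and 97.5 CPM) and amacrine cells (652 and 528 CPM) were the highest and the lowest of the age in these replicates. The sums of retinal progenitors (68.5 and 49.9 CPM), oligodendrocytes (73.6 and 54.0 CPM) and endothelial cells (17.9 and 14.6 CPM) had that order too. Those of RGCs (10613 and 11671 CPM) and bipolar cells (71.0 and 101 CPM) were instead the lowest and the highest, the order of most members. Most of the amacrine sum was Pax6, at 629 and 498 CPM. Gad1 (3.91 and 3.47 CPM) and Tfap2b (1.55 and 1.44 CPM) had the same order, whereas Gad2 (8.81 and 13.2 CPM) and Slc6a9 (7.67 and 9.42 CPM) had the opposite one. The part of such cells in the spread was not tested.

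Reads shared with near-identical copies limit some members. Of the 100-base windows of the matched transcript, 78.0% in Gapdh, 67.0% in Pgk1, 39.7% in Pgam1, 23.9% in Pfkfb2, 18.8% in Mpc1 and 10.5% in Pdhb also occur in transcripts of other genes, mostly processed pseudogenes. In Pkm the share was 9.82%, in Ldhb 8.80% and in Ldha 1.48%, and in Slc2a1, Slc16a3, Hk2, Pfkl, Aldoc, Eno2, Pfkfb3, Dlat, Pdha1, Cs and Pdk1 it was 0. The levels of the former are uncertain, as the treatment of reads with several matches is not stated. Exons of Hk1, Pfkm, Pfkp, Tpi1 and Pdha1, among others, overlap a gene on the opposite strand (Hk1os, Senp1, Pitrm1, Spsb2 and Map3k15), and whether the counting used strand is not stated either.

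Related pathways were read from 7 lists, for which the medians and counts stand beside the 43.4% of all tested genes that passed. Among other genes of glycolysis and pyruvate, 4 of 34 rose and 8 fell, with a median log2 of -0.05. Slc16a4, an orphan monocarboxylate transporter, fell from 3.81, 4.27 and 2.56 CPM to 1.03, 1.43 and 0.829 CPM (log2 -1.69, edgeR adjusted p = 0.00239). Pdp2, a phosphatase that reactivates pyruvate dehydrogenase, fell from 52.2 ± 6.00 to 26.7 ± 3.25 CPM (SD, n = 3; log2 -0.97, edgeR adjusted p = 0.000871). This phosphatase opposes the kinases, and it fell as the most abundant kinase Pdk1 did. Emb, embigin, a partner protein of monocarboxylate transporters, rose from 32.9 ± 0.745 to 69.8 ± 11.8 CPM (SD, n = 3; log2 1.09, edgeR adjusted p = 0.000508), and the proton-coupled inositol transporter Slc2a13 rose 3.60-fold (log2 1.85, edgeR adjusted p = 6.76e-05). Ldhd, the mitochondrial dehydrogenase of D-lactate, rose from 0.979 to 2.72 CPM (log2 1.47, edgeR adjusted p = 0.00765), and Pgm3, which serves the making of UDP-N-acetylglucosamine, fell 1.56-fold (log2 -0.64, edgeR adjusted p = 0.00174).

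Downstream, 7 of 17 citric acid cycle genes rose and 1 fell, with a median log2 of 0.27. Idh3a, the catalytic subunit of the NAD-dependent isocitrate dehydrogenase, rose from 79.0, 70.6 and 78.9 CPM to 177, 138 and 206 CPM (log2 1.19, edgeR adjusted p = 0.000583). Fh1, fumarase, and Sucla2, the ATP-forming subunit of succinyl-CoA synthetase, rose by log2 0.70 and 0.66 (edgeR adjusted p = 0.00509 and 0.00129). The gene that fell was Idh2, the NADP-dependent mitochondrial isocitrate dehydrogenase, from 63.3, 68.9 and 67.6 CPM to 37.1, 36.8 and 32.6 CPM (log2 -0.91, edgeR adjusted p = 0.000355). Idh3a and Idh2 thus moved apart without overlap. The other subunit genes of the NAD-dependent enzyme, Idh3b and Idh3g, did not pass (log2 0.28 and -0.05, edgeR adjusted p = 0.0551 and 0.756). Among the shuttles that carry cytosolic reducing equivalents to mitochondria, 7 of 10 rose and none fell, with a median of 0.40. Got1 and Mdh1, the cytosolic enzymes of the malate-aspartate shuttle, rose 1.92-fold and 1.73-fold (log2 0.94 and 0.79, edgeR adjusted p = 0.00133 and 0.00168), and Gpd1l rose 1.71-fold (log2 0.77, edgeR adjusted p = 0.000371). Without E18 replicate 1 the calls in either direction were 5 in place of 8 for the cycle, and for the shuttles they were 4 in place of 7 without E18 replicate 1 or E18 replicate 3.

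Side branches differed from each other. Of 16 glycogen genes 9 rose and none fell, with a median log2 of 0.47. Pygm, the muscle-type glycogen phosphorylase, rose most, from 1.98, 1.998 and 2.62 CPM to 21.5, 14.9 and 29.1 CPM, a 9.93-fold difference (log2 3.31, SE 0.259, edgeR adjusted p = 0.000132). Stbd1, which tethers glycogen for its breakdown in lysosomes, and Gyg, the primer protein glycogenin, rose 2.65-fold and 1.98-fold (edgeR adjusted p = 0.000498 and 0.000874). Of 11 pentose phosphate genes 2 rose and 2 fell, with a median of 0.03. Pgd and Taldo1, an enzyme each of the oxidative and non-oxidative arms, fell by log2 0.33 and 0.30 (edgeR adjusted p = 0.0183 and 0.0276), and H6pd, which acts in the endoplasmic reticulum, rose 1.80-fold (log2 0.85, edgeR adjusted p = 0.00662). The 4 pentose phosphate calls were 2 without E18 replicate 1 or E18 replicate 4.

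Genes that HIF-1 is known to induce outside glycolysis fell in 12 of 21 cases and rose in 2, with a median log2 of -0.48, beside 20.8% and 22.5% of all tested genes. Vegfa, the angiogenic factor, went from 151, 154 and 182 CPM to 47.6, 46.2 and 54.6 CPM, a 3.28-fold fall without overlap (log2 -1.71, SE 0.111, edgeR adjusted p = 7.51e-05). Mxi1, a repressor that competes with MYC, fell 2.69-fold, and Kdm3a, a histone demethylase, fell 2.42-fold (log2 -1.43 and -1.28, edgeR adjusted p = 0.000371 and 0.00279). Higd1a, a mitochondrial protein, went against these and rose from 53.7 ± 0.948 to 74.9 ± 19.2 CPM (SD, n = 3; log2 0.48, edgeR adjusted p = 0.0432). Without E18 replicate 3 there were 9 calls in either direction in place of 14. The transcript of Hif1a itself, named after its values were seen, overlapped between the ages, at 641 ± 31.8 and 570 ± 40.8 CPM (SD, n = 3; log2 -0.17, SE 0.0879, edgeR adjusted p = 0.150). HIF-1 is governed chiefly by the stability of its protein, which RNA counts do not measure. The part of HIF-1 in these changes was not tested.

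Among 18 transcription regulators of the pathway 3 rose and 5 fell, with a median log2 of -0.34. Ppargc1a and Ppargc1b, coactivators of mitochondrial genes, rose from 6.40, 5.42 and 5.99 CPM to 10.7, 11.96 and 14.7 CPM (log2 1.07, edgeR adjusted p = 0.00137) and from 1.59, 1.11 and 1.52 CPM to 1.93, 3.05 and 4.43 CPM (log2 1.16, edgeR adjusted p = 0.0188). Esrrg, an orphan nuclear receptor that works with these coactivators, rose 2.02-fold (log2 1.01, edgeR adjusted p = 0.00259). All 3 were higher in each P5 sample than in any E18 sample. Myc went from 20.7, 15.2 and 22.7 CPM to 13.4, 14.8 and 9.87 CPM (log2 -0.62, edgeR adjusted p = 0.0303), and Nrf1, a factor of mitochondrial biogenesis, and the glucose sensor Mlxip fell by log2 0.62 and 0.46 (edgeR adjusted p = 0.0158 and 0.0199). Without E18 replicate 3 or P5 replicate 6 the 8 calls became 4, and without P5 replicate 9 they became 5.

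**Figure D4:**
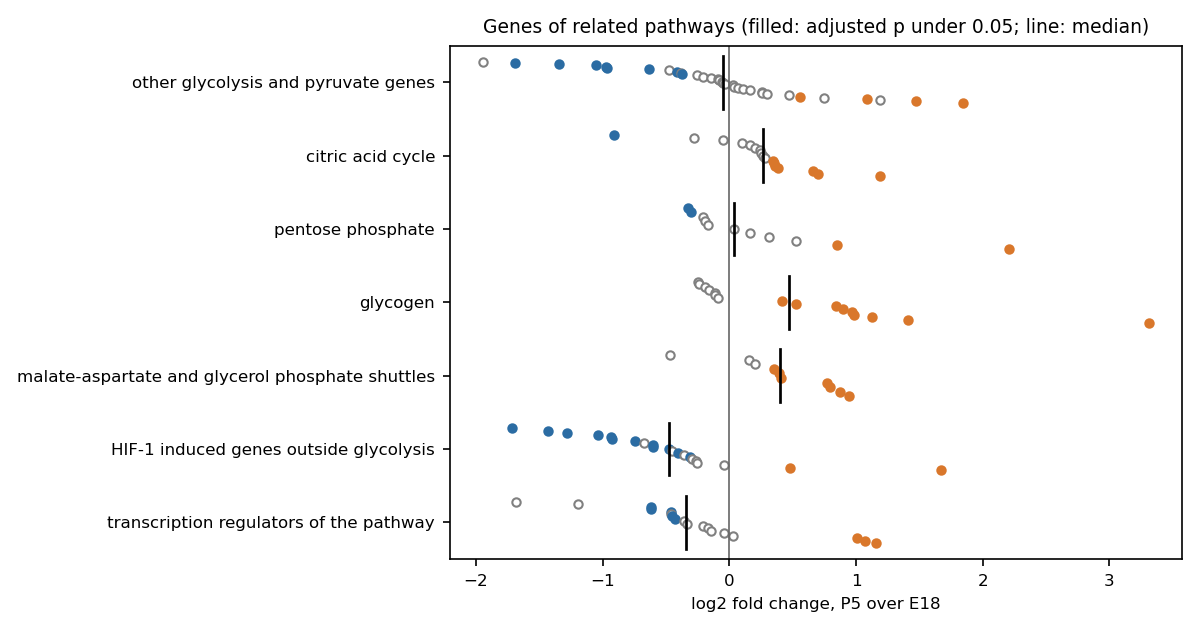
Log2 fold change of P5 over E18 (horizontal axis) for each tested gene of the 7 related lists, with filled points past the threshold of 0.05 (orange higher at P5, blue lower), open points not, and a black line at the median of each list. The medians of the glycogen list (0.47) and the shuttles (0.40) lie to the right of 0 and those of the HIF-1 list (-0.48) and the regulators (-0.34) to the left.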

How the data were processed

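RGC RNA was sequenced from 3 E18 and 3 P5 samples, grouped by their labels. The labels name polyA RNA, whereas the protocol names TruSeq with RiboZero Gold. Paired-end reads were mapped by the authors with STAR (mm10) and assigned to RefSeq genes with HT-seq. The raw counts they deposited were used here. The deposited normalized counts (a signal scaled by the authors), the authors' log2 fold changes, their p-values with false discovery rates and a rank score were not used. CASAVA 1.8.2 stands in the submitters' processing notes.

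After TMM normalization, the quasi-likelihood test in edgeR 4.0.16 (R 4.3.3) was run on the 16449 genes passing its filterByExpr filter, with Benjamini-Hochberg adjustment at 0.05. 2411 of 24060 genes had no count. Replicates differed by far more than sampling noise (chi-square per degree of freedom of 30.5 to 141), so the spread between samples sets the precision. On counts simulated for 16296 genes, 184 of 200 genes changed 2-fold were recovered with 16 false calls. The changed genes were balanced in direction and drawn from the better-expressed ones. They were far fewer than the 43.4% of genes that passed here, so these rates do not carry over to these data. Exonic lengths and coordinates came from GENCODE on mm10, and promoters from RefSeq (GRCm38.p6), in which Slc2a3 and Slc16a7 had no entry. Intervals of counting error are not given.

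The members, the lists and the tests were chosen with earlier results of these data known. All 36 members are named. From each related list the genes named are, in each direction, at most 3 with the largest change among genes that passed, whose ages did not overlap and whose mean reached 1 CPM, and 2 listed genes were not analysed here. Alternatives were DESeq2 1.42.0, edgeR's likelihood ratio and exact tests, upper-quartile normalization, library totals, other filters, each sample left out and, for shares, no division by length. Division by the length of 1 matched transcript was added after seeing the data.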

Additional observations from a re-analysis of the deposited data

How the results depend on the processing

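Of the 24 members called, 18 kept the call in all 13 alternatives, 6 (Hk1, Pfkm, Pfkp, Tpi1, Ldhb and Pdk3) lost it in at least 1, and none changed sign. Another 7 passed in at least 1. Of the members not called, Aldoa had a log2 of 0.0914 without P5 replicate 8, and Eno3 one of 0.00335 without P5 replicate 6, both of the opposite sign to the full data (over all omissions, Aldoa ran from -0.31 to 0.0914 and Eno3 from -0.18 to 0.00335). Leaving out each sample in turn gave 8 to 14 members higher and 10 to 16 lower at P5, a member median of -0.23 to -0.01, and 4575 (without E18 replicate 3) to 8796 (without P5 replicate 8) calls over all genes. For the related lists the same range of calls in either direction was 8 to 17 for other glycolysis and pyruvate genes, 5 to 12 for the citric acid cycle, 2 to 6 for pentose phosphate, 7 to 10 for glycogen, 4 to 7 for the shuttles, 9 to 13 for HIF-1 induced genes and 4 to 12 for regulators. The other normalizations, tests and filters gave 11 to 13 members higher and 12 to 13 lower, and no scaling moved the median of all genes by as much as 0.1. Without division by length, the differences in share were -2.41 points for Hk2, 4.01 for Aldoc, 26.1 for Eno2 and 37.0 for Slc16a1, and with the length of 1 transcript they were -1.71, 3.60, 31.0 and 28.8 points, all in the main direction. The cause of these shifts is the length itself. No paired analysis was possible because the ages share no replicate number. With 3 samples an age, changes as small as those of Ldhb or Hk1 rest on the spread between few samples, not on depth.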
